A study of Mus musculus with 24 samples.

Results

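The genes described here are the molecular chaperones and protein folding enzymes of HBC-3 cells, followed over 7 days on Matrigel. They were chosen by gene symbol: the heat shock protein genes (Hsp), the J-domain genes (Dnaj), the chaperonin subunits (Tcp1 and Cct2 to Cct8), the disulfide isomerases and related enzymes (Pdia, P4h, Erp), the peptidyl-prolyl isomerases (Fkbp and Ppia to Ppih), the BAG co-chaperones (Bag1 to Bag6), and Calr, Canx, Hyou1 and Ero1l. The rule found 73 genes on 119 array features among 8315 named genes, and 61 of the 73 had at least 2 values on each day and could be tested. By the known location of their proteins, 38 of the 61 were cytosolic or nuclear, 14 belonged to the endoplasmic reticulum (ER), 7 were mitochondrial and 2 (Dnajc25 and Hspb11) were not placed.

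HBC-3 is a line of mouse hepatoblasts, the fetal liver cells that can become hepatocytes or bile duct cells, and Matrigel is a gel of basement membrane proteins on which they differentiate. Cells at day 0 were undifferentiated, freed of their feeder layer of STO fibroblasts with trypsin, replated on plastic and harvested the next morning. The other groups were cells after 1, 2, 3, 4, 5, 6 or 7 days of differentiation on Matrigel. Each of the 8 days had 3 arrays of 2 colours, lettered A, B and C, which makes 24 arrays. The Cy5 channel held the sample and the Cy3 channel a reference from undifferentiated HBC-3 cells, so day 0 arrays carried undifferentiated cells in both channels. All groups come from the same line, dyes were not swapped, and no later day has cells grown off Matrigel among the samples analysed here, so time in culture and Matrigel cannot be told apart. Values are log2 ratios of sample to reference, centred on each array's median, and a rise of 1 is a doubling. A ratio of this kind carries no absolute level, so levels of different genes cannot be compared. In RNA from whole cultures, fewer cells of a type and less RNA per cell cannot be told apart.

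Chaperones bind proteins that are not yet folded and keep them from clumping. In the cytosol the HSP70 proteins, such as Hspa8, do this in cycles of ATP use that J-domain proteins start and nucleotide exchange factors, the BAG proteins among them, end. HSP90 proteins take over signalling proteins such as steroid receptors, and the ring of CCT subunits folds actin and tubulin. In the ER, which is large in liver cells because they secrete most plasma proteins, Hspa5 (BiP) and Hsp90b1 (GRP94) are the HSP70 and HSP90 forms, calreticulin and calnexin hold glycoproteins, and disulfide isomerases form cysteine bridges. Unfolded protein in the ER raises many of these genes through ATF6 and XBP1, which act on the ER stress element, and unfolded protein in the cytosol raises others through HSF1, which acts on the heat shock element.

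The promoters of the ER chaperones are shown first because the matches to the ER stress element all fell in ER genes. RefSeq promoter windows (mouse assembly GRCm38.p6, 250 bases before to 50 bases after the gene start) were given for 62 of the 73 genes, 17 of them ER genes, 39 cytosolic and 4 mitochondrial. The ER stress element was searched as CCAAT, any 9 bases, then CCACG, on both strands. It was found in 37 of 27025 mouse genes (0.137%) and in 6 of the 62 chaperone genes (9.68%), which were Calr, Canx, Dnajc3, Hsp90b1, Hspa5 and Pdia6. All 6 were ER genes, 35.3% of the 17, and 0 of the 39 cytosolic and 0 of the 4 mitochondrial windows held it. Each sequence below runs 5′ to 3′ in the direction of its gene, with 25 bases on either side of the match, and the capitals mark the element on either strand.
Hspa5: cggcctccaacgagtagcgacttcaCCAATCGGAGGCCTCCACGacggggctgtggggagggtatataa
Hsp90b1, far site: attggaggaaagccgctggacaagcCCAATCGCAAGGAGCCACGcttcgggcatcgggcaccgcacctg
Hsp90b1, near site: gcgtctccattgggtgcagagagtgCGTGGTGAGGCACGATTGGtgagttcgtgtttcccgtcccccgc
Calr: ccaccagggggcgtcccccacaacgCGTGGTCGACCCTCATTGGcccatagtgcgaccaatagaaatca
Canx: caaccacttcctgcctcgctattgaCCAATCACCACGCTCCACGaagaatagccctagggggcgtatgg
Dnajc3: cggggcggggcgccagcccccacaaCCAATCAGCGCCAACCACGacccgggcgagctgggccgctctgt
Pdia6: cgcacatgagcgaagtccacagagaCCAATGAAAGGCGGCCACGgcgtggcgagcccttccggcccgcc
The Hspa5 stretch lies at chr2:34772000-34772068 on the plus strand, and its element begins at position -65 from the gene start. The Hsp90b1 stretches lie at chr10:86705613-86705681 and chr10:86705508-86705576 on the minus strand. Those of Calr (chr8:84847050-84847118) and Canx (chr11:50325775-50325843) are also on the minus strand, and those of Dnajc3 (chr14:118937802-118937870) and Pdia6 (chr12:17266466-17266534) are on the plus strand.

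The heat shock element was searched as GAA, any 2 bases, TTC, any 2 bases, GAA, also on both strands. It was found in 179 of the 27025 genes (0.662%) and in 3 of the 62 chaperone genes (4.84%), the cytosolic Dnajb6 and Hsph1 and the mitochondrial Hspd1. In Hspd1 a match on each strand overlapped, and the forward match is in capitals here.
Hspd1: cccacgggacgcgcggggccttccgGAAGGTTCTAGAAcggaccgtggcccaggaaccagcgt
Dnajb6: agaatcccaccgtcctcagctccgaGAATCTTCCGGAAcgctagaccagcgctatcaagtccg
The stretches lie at chr1:55088034-55088096 on the minus strand and chr5:29735827-29735889 on the plus strand. A match is a run of letters and says nothing of whether a factor was bound in these cells.

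Arrays held values for 12328 to 22149 of 24157 features. Within a day the arrays correlated over all features at 0.75 to 0.921 on days 1 to 3 and at 0.468 to 0.779 on days 4 to 7. The day 0 pairs, which set undifferentiated cells against themselves, gave 0.755 for A with B, -0.343 for A with C and 0.0839 for B with C. Every change against day 0 rests on these 3 arrays, so values with the sign of day 0 turned are given where they end a call. Of the hepatocyte and hepatoblast markers, 4 of 13 could be tested, and 3 (H19, Afp and Igf2) were higher on day 7. The other, Apob, changed by -0.38 ± 0.18 and was not called (adjusted p = 0.116). The median change over the 4 was 1.87. Of the bile duct markers 2 of 8 were tested and Anxa4 was higher on day 7 (1.27 ± 0.21, adjusted p = 0.000358), while the 1 tested of 5 epithelial markers, Cldn3, changed by -1.03 ± 0.37 on day 1 (adjusted p = 0.0818) and -0.22 on day 7 and was not called.

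**Figure D1:**
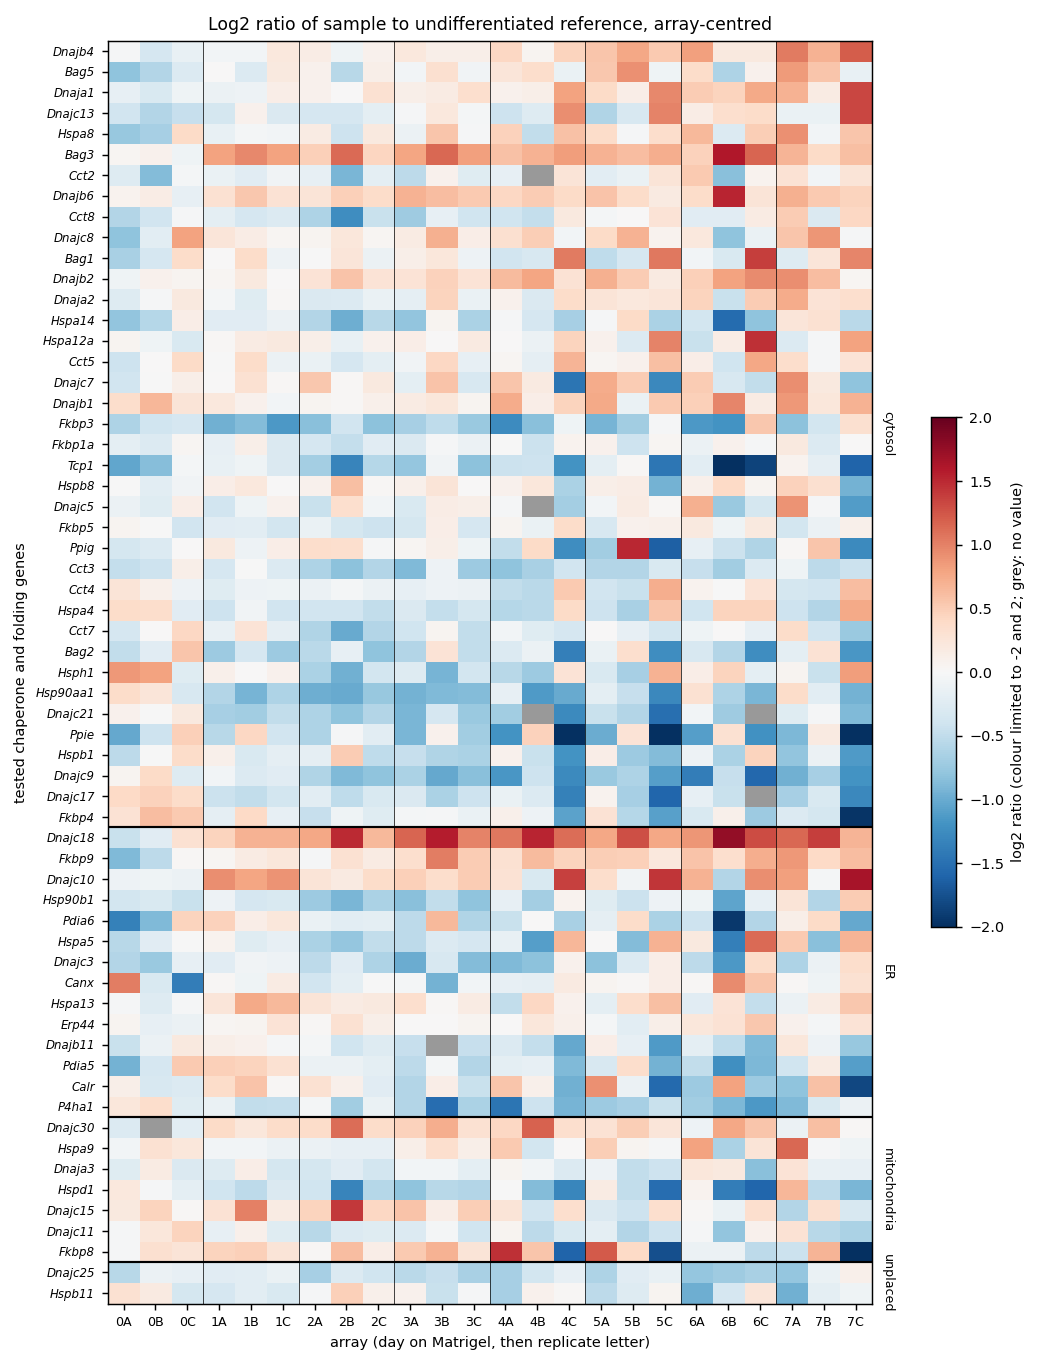
Log2 ratio of sample to undifferentiated reference for the 61 tested chaperone and folding genes (rows, grouped by location) on the 24 arrays (columns, day then replicate letter), array-centred. Red is above and blue below the reference, colours stop at -2 and 2, and grey marks no value. The C arrays of days 4 to 7 stand apart from A and B in rows such as Hspa5, Fkbp8 and Ppie.

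Few chaperone genes passed the tests. By day 1, 1 of the 61 genes passed the test of limma (adjusted p under 0.05 over all 10639 genes and unnamed features), and this gene, Bag3, was higher. The same test called 10.9% of everything tested, 4.99% higher and 5.92% lower. By day 7, 8 of the 61 (13.1%) differed from day 0, 5 higher and 3 lower, against 27.6% of everything tested, 14.6% higher and 13% lower. Between days 5 to 7 and days 1 to 3, 2 genes were higher late and 1 was lower, against a background of 7.74%, with 3.51% higher and 4.23% lower. Any change over the 8 days was called for 4 of the 61, against 16.3%. The median chaperone gene changed by 0.15 on day 1 and 0.16 on day 7, and the median over everything tested by 0.03 and -0.01. Groups that did not overlap were also fewer among the chaperones, 27.9% against 43.3% on day 1 and 24.6% against 41.3% on day 7. The comparisons with day 0 share its 3 arrays and are not independent of each other. Arrays of the same letter deviated together within days 1 to 3 and within days 4 to 7. The fit took all arrays as independent, so standard errors and p-values of late against early days may be too small.

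The days between were compared with day 0 in the same fit. The genes called numbered 4 of 61 on day 2, against 17.1% of everything tested, 6 on day 3 (against 24.4%), 8 on day 4 (22.2%), 8 on day 5 (22.9%) and 9 on day 6 (24.8%). As shares of the 61 these are 6.56%, 9.84%, 13.1%, 13.1% and 14.8%. Dnajc18 and Dnajc9 were called on each of these 5 days, Bag3 and Fkbp9 on each of days 3 to 6, and Dnajb4 on days 5 and 6. Dnaja1 (day 6), Bag5 (day 5) and Dnajc17 (days 4 and 5) completed those also called in the 4 tests above. Dnajc18 on days 3, 4 and 6 and Bag3 and Dnajc9 on day 6 kept their calls under all 10 alternatives tried for these days. The other calls of Dnajc18 were lost without day 0 array A, those of Dnajc9 without day 0 array B, and those of Dnajb4 without day 0 array B. The day 3 call of Bag3 was lost without day 3 array B, and its day 4 and day 5 calls under 9 of the 10, which include the omission of any 1 array of the days compared. The 4 calls of Fkbp9 were lost with the sign of day 0 turned, and those of days 4 and 5 also without day 0 array A. The calls of Dnaja1, Bag5 and Dnajc17 were lost without day 0 array A or B and with the sign of day 0 turned. A further 8 genes passed on 1 or more of these days and in none of the 4 tests above: Cct7, Dnajb2, Dnajb6, Dnajc21, Dnajc30, Hsp90aa1, Hsph1 and P4ha1. Each of their calls was lost without day 0 array B. In all, 19 of the 61 genes were called in at least 1 of these comparisons and 42 in none. The matching share of everything tested was not counted, and day 7 alone called 27.6% of it.

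Over the 4 tests (days 1 and 7, late against early days, and any change) 11 of the 61 genes were called at least once, and 50 were not called. The share of everything tested called in at least 1 of the 4 was not counted. Day 7 alone called 27.6% of it, so the counts by family below do not set a family apart. J-domain proteins, the starters of the HSP70 cycle, made up 6 of the 11, out of 22 tested. The BAG family had 2 of 4, the peptidyl-prolyl isomerases 2 of 8 and the CCT subunits 1 of 7. None of the 14 HSP70, HSP90, HSP60 and small heat shock proteins, of the 4 disulfide isomerases and related enzymes, or of the 2 lectin chaperones was called in these 4 tests. At an unadjusted p under 0.05 in at least 1 of the 4 the counts were 4 of the 14, 2 of the 4 and 0 of the 2. Such p-values were common in everything tested. Of 10639 units, 2610 had one on day 1, 4339 on day 7, 2801 between late and early days and 3252 over the 8 days.

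Dnajb4, a cytosolic J-domain partner of HSP70, rose over the week. On day 0 its log2 ratios were -0.02, -0.33 and -0.15 on arrays A, B and C, on day 1 they were -0.05, -0.06 and 0.21, and on day 7 they were 1.04, 0.69 and 1.21. The day 7 values were all above every value of days 0 to 3, and the days between were intermediate, with means of 0.30 on day 4, 0.62 on day 5 and 0.40 on day 6. The change was 0.20 ± 0.20 (SE) on day 1, which was not called, and 1.15 ± 0.20 on day 7 (adjusted p = 0.00042). Late days exceeded early days by 0.59 ± 0.12 (adjusted p = 0.00634), and the test over all 8 days gave an F of 6.61 (adjusted p = 0.00586). Day 7 also exceeded day 1, by 0.95 (adjusted p = 0.0134), and Dnajb4 was the only 1 of the 61 genes called in that comparison, against a background of 2.92%, with 1.54% higher and 1.38% lower. Its 3 calls in the other tests held under all 16, 27 and 32 alternative settings tried for them.

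Dnajc18, a J-domain protein of the ER membrane, was higher from the first days on. Its values were -0.44, -0.23 and 0.31 on day 0, 0.45, 0.70 and 0.69 on day 1, 1.17, 1.57 and 0.99 on day 3, and 1.15, 1.38 and 0.68 on day 7. Every array of days 1 to 7 lay above the 3 of day 0. The change reached 1.19 ± 0.28 on day 7 (adjusted p = 0.00442) and was 0.73 ± 0.28 on day 1, which was not called (adjusted p = 0.103). Its change over the 8 days (F of 5.60, adjusted p = 0.0122) was not called without day 0 array A or day 0 array B, or with the sign of day 0 turned.

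Dnaja1, a farnesylated partner of Hspa8, also rose by day 7. It went from -0.17, -0.31 and -0.08 on day 0 to 0.69, 0.16 and 1.33 on day 7, so the groups did not overlap, with array C the highest and array B the lowest. The change was 0.91 ± 0.27 (adjusted p = 0.015), and its 2 array features gave 0.77 and 1.05. The call was lost without day 0 array B, without day 7 array C, with only the compared days fitted, or with the sign of day 0 turned.

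Of the J-domain genes that fell, Dnajc9 encodes a histone chaperone that works with HSP70 in the nucleus. Its ratios were 0.05, 0.39 and -0.26 on day 0, -0.06, -0.27 and -0.22 on day 1, -0.60, -0.89 and -0.80 on day 2, and -0.96, -0.67 and -1.19 on day 7. All arrays from day 2 on were below all of days 0 and 1. The day 7 change was -1.0 ± 0.28 (adjusted p = 0.0114) and the test over the 8 days gave an F of 4.47 (adjusted p = 0.0292). The day 7 call was lost without day 0 array B or day 7 array C. The call over the 8 days was lost without day 0 array A or B, without any 1 array of day 1, with arrays scaled, or with the sign of day 0 turned.

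Dnajc17, a nuclear J-domain protein linked to RNA splicing, went from 0.40, 0.46 and 0.37 on day 0 to -0.43, -0.49 and -0.36 on day 1 and -0.67, -0.31 and -1.29 on day 7. The arrays of days 1 and 7 were all below those of day 0. The day 1 change of -0.84 ± 0.35 was not called (adjusted p = 0.132), and the day 7 change of -1.17 ± 0.35 was (adjusted p = 0.0174). It was lost without day 0 array B or day 7 array C, and with the sign of day 0, or of its array C alone, turned, where the change was as small as -0.35. The mitochondrial Dnajc15, an inner membrane protein of the import motor, was lower on late days by -0.63 ± 0.18 (adjusted p = 0.0393). Its early arrays ran from 0.14 to 1.42 and its late arrays from -0.58 to 0.34, so the groups overlapped, and 10 of the 18 omissions of 1 array ended the call.

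The other 16 tested J-domain genes passed none of these 4 tests, and 4 of them passed on a day between. The ribosome assembly factor Dnajc21 was lower on day 4 (-1.07 ± 0.32, adjusted p = 0.0229) and day 5 (-0.94 ± 0.29, adjusted p = 0.0247), and both calls were lost with the sign of day 0 turned and without day 0 array A or B or the C array of the day, that of day 5 also without day 0 array C. Dnajb2 and Dnajb6, cytosolic partners of HSP70, were higher on day 6 by 0.73 ± 0.22 and 0.70 ± 0.24 (adjusted p = 0.0201 and 0.0421), and the mitochondrial Dnajc30 on day 4 by 0.88 ± 0.31 (adjusted p = 0.0472). These 3 calls were also lost without day 0 array A or B, that of Dnajb2 without day 6 array C, that of Dnajb6 without day 0 array C or day 6 array B, and that of Dnajc30 without day 0 array C or day 4 array B. With the sign of day 0 array C turned the calls of Dnajb6 and Dnajc30 were lost, and with all of day 0 turned that of Dnajc30. Among the 12 never called, Dnajc10, an ER reductase that helps remove misfolded proteins, went from -0.10, -0.08 and -0.12 on day 0 to 0.93, 0.79 and 0.90 on day 1, a change of 0.97 ± 0.44 (adjusted p = 0.172). Its day 7 arrays, at 0.82, -0.04 and 1.65, spread over more than the change itself. Dnajb1, the main heat-induced partner of HSP70, had 0.35, 0.66 and 0.25 on day 0, 0.21, 0.09 and -0.06 on day 1, and 0.87, 0.22 and 0.69 on day 7. Its changes were -0.34 ± 0.25 on day 1 and 0.17 ± 0.25 on day 7 (adjusted p = 0.436 and 0.641).

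**Figure D2:**
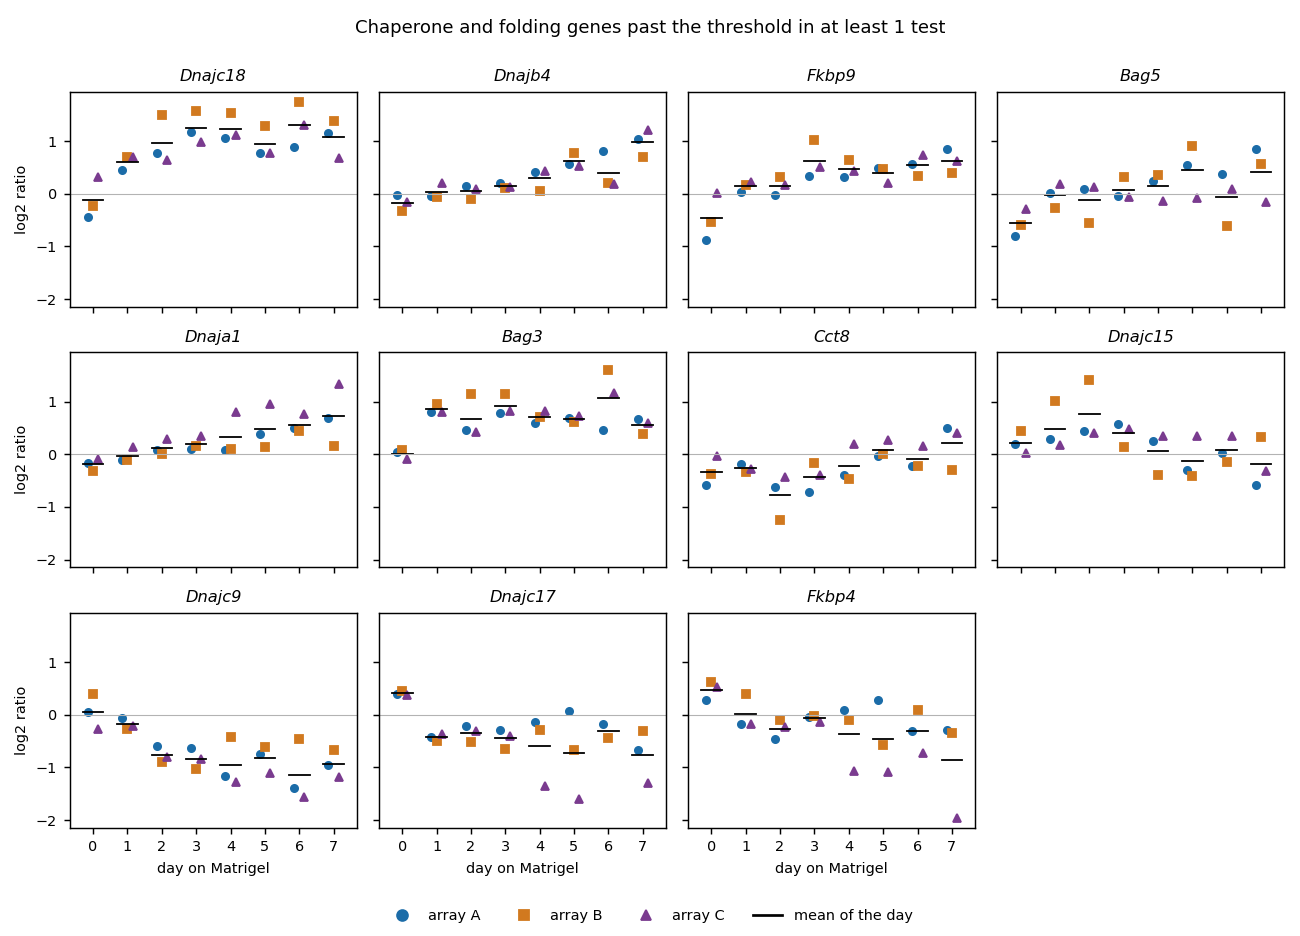
Log2 ratio by day on Matrigel for the 11 chaperone and folding genes past the threshold in at least 1 of the 4 tests, with a point for each array (A, B, C) and a line through the mean of each day. Dnajb4 climbs to between 0.69 and 1.21 on day 7, Bag3 steps up by day 1, and Dnajc9 is lower from day 2 on.

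Bag3 and Bag5 end the HSP70 cycle by releasing nucleotide, and Bag3 also hands clients to autophagy. The ratios of Bag3 were 0.04, 0.08 and -0.09 on day 0 and 0.81, 0.96 and 0.80 on day 1, and all later arrays lay between 0.39 and 1.60, so no array of days 1 to 7 overlapped with day 0. Its day 1 change was 0.85 ± 0.24 (adjusted p = 0.0264), and on day 7 it was 0.55 ± 0.24, which was not called (adjusted p = 0.0902). The day 1 call was lost when any 1 of the 6 arrays of days 0 and 1 was left out, with an adjusted p of at most 0.0883 over its alternatives. Bag5 went from -0.80, -0.59 and -0.28 on day 0 to 0.85, 0.56 and -0.15 on day 7, where array C stood just above the highest day 0 array. Its change of 0.97 ± 0.31 (adjusted p = 0.0233) was lost without day 0 array A or B or day 7 array A or B and with only the compared days fitted. It was 0.79 with day 0 array C turned, 0.42 against the reference channel and -0.13 with all of day 0 turned, and none of these was called. Bag1 and Bag2 passed no test.

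Fkbp9 and Fkbp4 belong to the peptidyl-prolyl isomerases, which turn the bond before proline. Fkbp9 works in the ER, and its ratios were -0.88, -0.53 and 0.02 on day 0, 0.04, 0.16 and 0.22 on day 1, and 0.86, 0.40 and 0.62 on day 7. The day 7 change was 1.09 ± 0.23 (adjusted p = 0.00182), and the test over the 8 days gave an F of 5.06 (adjusted p = 0.0186). With the sign of day 0 turned the day 7 change was 0.16 and not called. The call over the 8 days was lost there too, and without day 0 array A or B. Fkbp4, the HSP90 partner of steroid receptors, went from 0.29, 0.62 and 0.52 on day 0 to -0.28, -0.35 and -1.96 on day 7, with array C far below the others. The change was -1.34 ± 0.39 (adjusted p = 0.0162). It was lost without day 0 array B or day 7 array C, with only the compared days fitted, and with day 0 or its array C turned, where the value was as small as -0.39. The other 6 tested isomerases, Fkbp1a, Fkbp3, Fkbp5, Fkbp8, Ppie and Ppig, passed no test.

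Of the 7 tested CCT subunits, Cct8 and Cct7 were called, in 1 comparison each. Cct7 was lower on day 2 by -0.77 ± 0.26 (adjusted p = 0.0448), with -0.33, 0.01 and 0.42 on day 0 and -0.60, -1.01 and -0.59 on day 2, and the call was lost without day 0 array B or C or any 1 array of day 2, and with the sign of day 0, or of its array C alone, turned. Cct8 was higher on days 5 to 7 than on days 1 to 3 by 0.55 ± 0.15 (adjusted p = 0.0303). Its early arrays ran from -1.24 to -0.17 and its late arrays from -0.29 to 0.50, and the call was lost without the C arrays of days 4 to 7 and in 10 of 18 omissions of 1 array. Late minus early differences were positive in 6 of the 7 subunits, with a median of 0.17. The exception was Tcp1, the founding subunit, at -0.31 ± 0.28 (adjusted p = 0.503). Its ratios were -1.04, -0.85 and -0.04 on day 0, -0.15, -0.09 and -0.29 on day 1, and 0.07, -0.18 and -1.60 on day 7, with array C apart. On day 7 the changes of the 7 subunits ran from -0.29 (Cct7) to 0.55 (Cct2), and none was called.

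The 14 tested ER genes were mostly higher on day 1 than on day 0 but fell short of the test one by one. Of the 14, 13 had a positive change on day 1, with a median of 0.42, and 0 passed. Of 38 cytosolic genes 22 were positive, with a median of 0.07, and 1 passed. Of everything tested, 5596 of 10639 were positive on day 1 and 10.9% passed. An unadjusted p under 0.05 was found for 4 of the 14 and 4 of the 38, against 2610 of the 10639 units tested. The exception among the ER genes was P4ha1, a collagen prolyl hydroxylase, at -0.48 ± 0.30 (adjusted p = 0.346). P4ha1 went on to pass as lower on day 3 (-1.03 ± 0.30, adjusted p = 0.0162), day 4 (-1.04 ± 0.30, adjusted p = 0.0159) and day 6 (-1.02 ± 0.30, adjusted p = 0.0157). Its ratios were 0.23, 0.35 and -0.25 on day 0 and -0.59, -1.53 and -0.64 on day 3, with no overlap. These calls were lost with the sign of day 0 turned, without day 0 array A or B, and without day 3 array B, day 4 array A or day 6 array C. On day 7 the ER median was 0.33, with 10 of 14 positive and 2 called (Dnajc18 and Fkbp9), 14.3%. The cytosolic median was 0.14, with 23 of 38 positive and 6 called, 15.8%. Of everything tested, 5265 of 10639 were positive on day 7 and 27.6% were called. Between late and early days the ER median was 0.05 and the cytosolic median 0.16. The day 1 median of the ER genes was -0.12 with the sign of day 0 turned and 0.13 against the reference channel alone.

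Over the 14 ER genes the day 1 median was 0.36, 0.32 and 0.47 without day 0 array A, B or C. Pdia6, a disulfide isomerase, had the largest day 1 change among the 6 genes with an ER stress element. Its day 0 ratios were -1.35, -0.89 and 0.44, and its day 1 ratios were 0.46, 0.13 and 0.23, so day 0 array C lay within the range of day 1 while A and B were far below. The change was 0.88 ± 0.46 (adjusted p = 0.251). On day 7 its ratios were 0.11, 0.38 and -1.03, a change of 0.42 ± 0.46.

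Hspa5, the ER HSP70, had -0.56, -0.23 and -0.01 on day 0, 0.07, -0.25 and -0.16 on day 1, and 0.52, -0.83 and 0.68 on day 7. The groups overlapped in both comparisons, and the changes were 0.15 ± 0.52 and 0.39 ± 0.52 (adjusted p = 0.907 and 0.595). Hsp90b1 went from -0.37, -0.31 and -0.44 on day 0 to -0.10, -0.33 and -0.31 on day 1, -0.72, -0.91 and -0.63 on day 2, and 0.25, -0.59 and 0.50 on day 7. Its changes were 0.13 ± 0.27 on day 1 and 0.42 ± 0.27 on day 7 (adjusted p = 0.845 and 0.258). Both genes had their lowest daily mean on day 2, and their day 7 arrays split, with A and C above the reference and B below it.

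Calreticulin (Calr) had 0.12, -0.32 and -0.28 on day 0, 0.36, 0.57 and 0.03 on day 1, and -0.81, 0.59 and -1.82 on day 7. Array B of day 7 lay above every day 0 array and arrays A and C below, and the changes were 0.48 ± 0.57 and -0.52 ± 0.57 (adjusted p = 0.676 and 0.518). Calnexin (Canx) had 1.02, -0.30 and -1.38 on day 0, where both channels held undifferentiated cells, and 0.02, -0.09 and 0.30 on day 7. Its day 0 spread exceeded its changes of 0.25 ± 0.39 and 0.30 ± 0.39, and its 2 features differed in sign on day 7. Dnajc3, an ER J-domain protein that also inhibits the kinase PERK, changed by 0.36 ± 0.35 on both days. None of the 6 genes with an ER stress element was called in any of the 4 limma tests. Of the 6, 1, Hsp90b1, had an unadjusted p under 0.05, between late and early days, as had 2801 of the 10639 units tested.

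**Figure D3:**
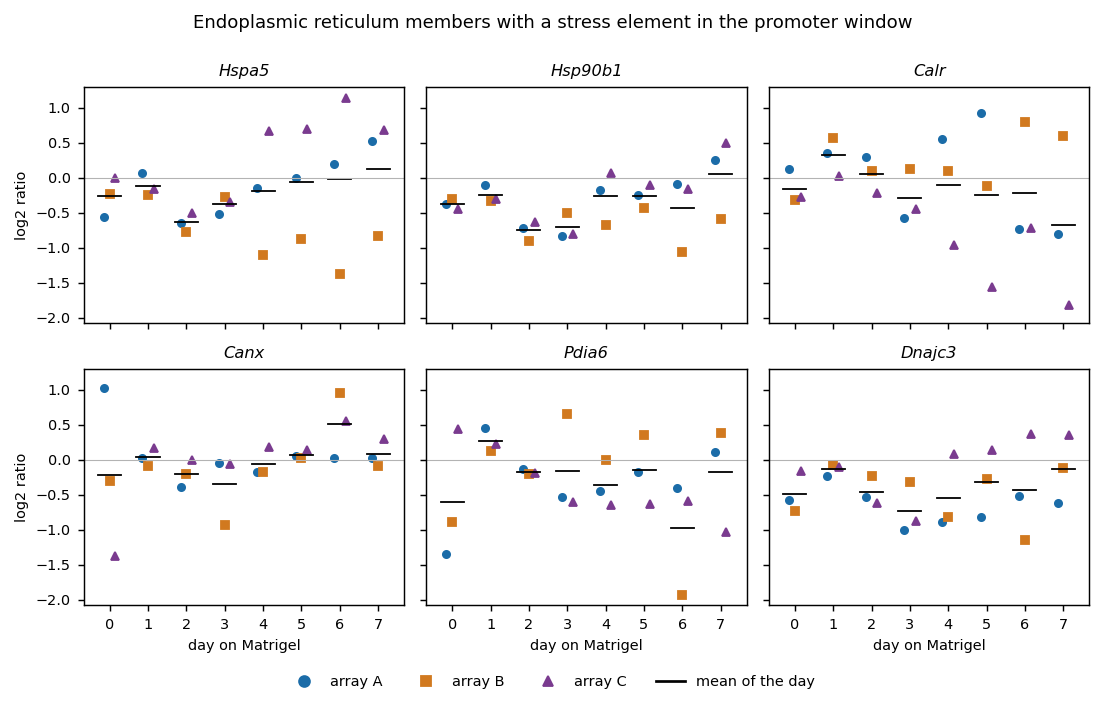
Log2 ratio by day on Matrigel for the 6 ER genes whose promoter window holds the ER stress element, with a point for each array and a line through the mean of each day. Day 0 arrays of Canx run from -1.38 to 1.02 and day 7 arrays of Calr from -1.82 to 0.59, and no gene of the 6 was called.

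The mean over the 14 ER genes minus the mean over the 38 cytosolic genes gives each array a single number that does not depend on its centring. On day 0 it was -0.09, -0.18 and -0.15 on arrays A, B and C, and on day 1 it was 0.33, 0.21 and 0.30. The day means were -0.14 ± 0.05 (SD, n = 3) on day 0, 0.28 ± 0.06 on day 1, 0.15 ± 0.04 on day 2, 0.02 ± 0.04 on day 3 and 0.06 ± 0.15 on day 7. All arrays of day 1 lay above all arrays of day 0, and from day 3 on the means were between -0.05 and 0.08. The step was 0.42 on day 1 and 0.21 on day 7. It was 0.14 and -0.08 with the sign of day 0 turned. Against the reference channel it was 0.28 and 0.06. This is a description, and no test was made of it because the genes were grouped with results of these data known.

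**Figure D4:**
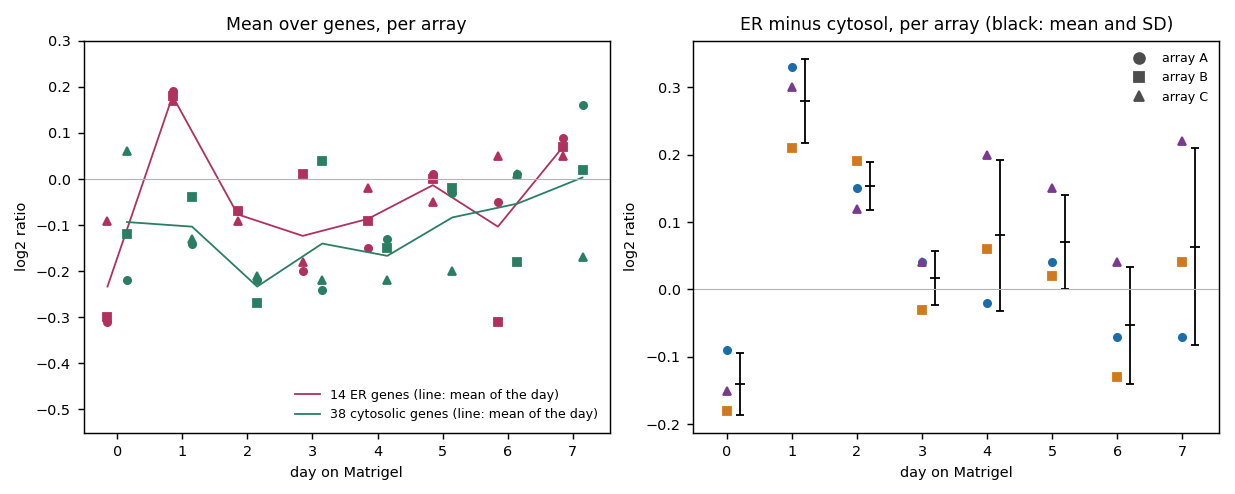
Left, mean log2 ratio over the 14 ER and the 38 cytosolic genes on each array, with a line through the mean of each day. Right, ER minus cytosolic mean on each array, with the mean and SD of the 3 arrays of a day, which is highest on day 1 at 0.28 ± 0.06.

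Markers of fibroblasts, the feeder cell type, moved in the same step. Of 19 listed markers 10 were tested, and on day 1 all 10 had a positive change, with a median of 1.12. On that day 3 (Pdgfrb, Col6a1 and Col5a1) were called, 30% of the 10. Of everything tested, 5596 of 10639 had a positive change on day 1 and 10.9% were called. The mean over these markers was -0.84, -0.76 and 0.11 on day 0, 0.80, 0.28 and 0.89 on day 1, and 0.75, 0.54 and 0.37 on day 7. The day 7 mean leans on Dcn, the highest of the 10 at 3.37, 4.37 and 3.83. On day 7 7 of the 10 had a positive change, and those of Col5a1, Col5a2 and Col6a2 were negative. Between late and early days 1 marker was called higher and 3 lower, against 3.51% and 4.23% of everything tested. Fibroblasts secrete collagen and are rich in ER enzymes, and the part of these cells in the ER values was not tested. Of 5 blood cell markers 2 were tested, with a median of 1.32 on day 1: Hba-a1 was called on day 1 (1.33 ± 0.35, adjusted p = 0.0189) and Tyrobp on day 7 (2.29 ± 0.58, adjusted p = 0.00757). Their mean was -0.29, -0.49 and 0.09 on day 0 and 1.30, 0.43 and 1.11 on day 1, and their part in the ER values was not tested either. Day 0 array C stood above A and B in the fibroblast mean. It did so too in the mean over the 14 ER genes, which was -0.31, -0.3 and -0.09 on arrays A, B and C. By gene, array C was the highest of day 0 in Dnajb11, Dnajc18, Dnajc3, Fkbp9, Hspa13, Hspa5, Pdia5 and Pdia6. In Canx, Dnajc10, Hsp90b1 and P4ha1 it was the lowest, and in Calr and Erp44 it lay between A and B.

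The heat shock proteins themselves passed none of the 4 tests, and on the days between 2 of the 14 were lower than on day 0. The cytosolic Hspa8, the constitutive HSP70, had -0.76, -0.67 and 0.39 on day 0, -0.15, -0.04 and -0.05 on day 1, and 0.91, -0.05 and 0.56 on day 7, and its day 7 change was 0.82 ± 0.35 (adjusted p = 0.0801). Hsp90aa1, the inducible cytosolic HSP90, had 0.37, 0.24 and -0.32 on day 0, -0.58, -0.93 and -0.62 on day 1, and 0.36, -0.21 and -0.95 on day 7. All arrays of day 1 were below those of day 0, but the change of -0.81 ± 0.35 was not called (adjusted p = 0.158). Its 5 features were all lower on day 1, from -1.31 to -0.59. They differed in sign on day 7, from -1.99 to 0.13, and between late and early days, from -0.38 to 0.75. On day 3 Hsp90aa1 had -0.95, -0.88 and -0.86 and was called (-1.0 ± 0.35, adjusted p = 0.0441). That call was lost with the sign of day 0 turned and without day 0 array A or B or any 1 array of day 3. Hsph1, an exchange factor with a heat shock element in its promoter window, had 0.87, 0.80 and -0.25 on day 0 and -0.64, -0.96 and -0.36 on day 2, with no overlap. The day 2 change of -1.13 ± 0.38 was called (adjusted p = 0.0445), and those of day 3 (-1.0 ± 0.38, adjusted p = 0.0593), day 1 (-0.42 ± 0.38) and day 7 (-0.32 ± 0.38) were not. The day 2 change was -0.18 with the sign of day 0 turned, and its call was lost there and without day 0 array A or B or any 1 array of day 2. Hspb1, a small heat shock protein, had -0.52, -0.01 and 0.36 on day 0, 0.10, -0.31 and -0.18 on day 1, and -0.79, -0.12 and -1.14 on day 7. Its day 7 change was -0.62 ± 0.37 (adjusted p = 0.208).

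The mitochondrial HSP60, Hspd1, had 0.21, -0.03 and -0.20 on day 0, -0.40, -0.52 and -0.29 on day 1, and 0.66, -0.52 and -0.92 on day 7. Its changes of -0.40 ± 0.46 and -0.26 ± 0.46 were not called (adjusted p = 0.667 and 0.705). Hspa9, the HSP70 of the mitochondrial import motor, reached 1.15, -0.03 and -0.09 on day 7, where array A alone was high. The median over the 7 mitochondrial genes was -0.04 on day 1 and -0.26 on day 7.

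The C arrays of days 4 to 7 differed from A and B of the same days for many of these genes. All 4 C arrays lay above, or all below, both other arrays of their day for 23 of the 61 genes, 11 above and 12 below, which is 37.7% against 32.7% of everything tested. For Hspa5 the mean was 0.79 over the C arrays and -0.45 over A and B. Fkbp8, an anti-apoptotic protein of the mitochondrial surface, had -1.53 against 0.46, Ppie, a spliceosomal isomerase, -1.96 against -0.37, and Hspd1 -1.34 against -0.30. Without these 4 arrays the genes called on day 7 numbered 11 in place of 8, while the share of everything tested went from 27.6% to 31.5%. On day 1 they were 6 in place of 1 (10.9% to 21.3% of everything), and over the 8 days 11 in place of 4 (16.3% to 29.8%). The sources used here do not say what sets the C arrays apart.

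The 12 genes without enough values include several of the ER. P4hb, the founding disulfide isomerase, had 20 values, from 0.19, -0.01 and -0.11 on day 0 to -0.14, 0.53 and 0.54 on day 1 and -0.56, 0.04 and -0.96 on day 7. Pdia4 had 21, from -0.32, -0.10 and -0.19 on day 0 to 0.81, 0.20 and -0.50 on day 7. In both, as in Calr, day 7 array C was the lowest. Hspbap1, which binds a small heat shock protein, had -0.15, -0.20 and -0.10 on day 0, -0.88, -0.79 and -0.79 on day 1 and -0.61, -0.37 and -0.47 on day 7. It was lower on every array measured from day 2 to day 5 as well, but its only value on day 6, -0.19 on array A, lay within the range of day 0. Hspa4l went from 0.53, 0.97 and 0.50 on day 1 to -0.75, -1.0 and -0.67 on day 3. The remaining 8 were Dnajb12, Dnajb9, Dnajc1, Dnajc27, Fkbp15, Hspb7, Hspbp1 and Ppic, with 2 to 20 values each. Hyou1, Ero1l, Pdia3, Ppia, Ppib, Hsp90ab1 and Hspe1 were not analysed here.

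Genes that work with the chaperones but were not chosen by the symbol rule were examined as lists. Of 28 cytosolic partners 14 were tested, and on day 7 1 rose and 4 fell, 35.7% of the list against 27.6% of everything tested. The 1 that rose was Sugt1, an HSP90 partner, by 0.99 ± 0.29 (adjusted p = 0.0164). Those that fell were the prefoldin subunits Pfdn4 (-1.76 ± 0.52, adjusted p = 0.0186) and Pfdn6 (-1.61 ± 0.57, adjusted p = 0.0402), which bring actin and tubulin to CCT, with Pdcl3, a CCT partner (-1.29 ± 0.47, adjusted p = 0.0463), and Nudc (-0.94 ± 0.20, adjusted p = 0.00229). The list had a median of -0.45 on day 7. Array C of day 7 was the lowest for each gene that fell. On arrays A, B and C Pfdn6 had -0.63, -0.19 and -2.1 and Pdcl3 -0.71, -0.12 and -2.68. Pfdn4 had -1.78, -1 and -2.13, and Nudc -0.56, -0.52 and -0.7. The mean over the list was -0.3, -0.1 and -1 on these arrays. Sugt1 was highest on array C, with 0.94, 0.47 and 1.65. No alternatives are given here for these calls. No gene of the list was called on day 1. On day 1 2 of the 14 had an unadjusted p under 0.05, against 2610 of the 10639 units tested. On days 5 to 7 against days 1 to 3 Sugt1 was higher by 0.69 ± 0.17 (adjusted p = 0.0186) and Tbcd, a tubulin cofactor, changed by -0.53 ± 0.14 (adjusted p = 0.0308).

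Of 36 genes of ER stress and quality control 21 were tested, and 3 rose by day 7, with none lower. The 3 are 14.3% of the list, against 14.6% of everything tested that was higher. They were Sec62, of the translocon (1.39 ± 0.25, adjusted p = 0.000587), Sel1l, a scaffold of ER-associated degradation (1.13 ± 0.31, adjusted p = 0.0111), and Derl1, of the same pathway (0.94 ± 0.20, adjusted p = 0.00217). Sec62 was also higher on late than on early days, by 0.54 ± 0.15 (adjusted p = 0.0314). Of the ER stress factors, Xbp1 and Atf6 were not called on any day, and Atf4 was lower on day 3 (-0.58 ± 0.20, adjusted p = 0.039), day 5 (-0.61 ± 0.20, adjusted p = 0.0336) and day 6 (-0.59 ± 0.20, adjusted p = 0.0345). Each of these calls was lost with the sign of day 0 turned and without day 0 array A or B, among other single arrays. Xbp1 changed by 0.97 ± 0.38 on day 1 and 0.82 ± 0.38 on day 7 (adjusted p = 0.112 and 0.11), Atf4 by -0.48 ± 0.20 and -0.45 ± 0.20 (adjusted p = 0.139 and 0.0979), and Atf6 by -0.34 ± 0.36 and -0.04 ± 0.36. The day 1 median of this list was 0.42, with 17 of 21 positive, and 0 were called. On day 1 8 of the 21 had an unadjusted p under 0.05, against 2610 of the 10639 units tested. Of the 6 tested collagen processing genes and the 11 tested mitochondrial folding and import genes, none was called on day 1 or day 7. At an unadjusted p under 0.05 the collagen list had 2 on day 1 and 0 on day 7, and the mitochondrial list 0 and 1. Everything tested had 2610 and 4339 of 10639. Crtap of the collagen list was higher on days 2 to 5 (day 3: 1.37 ± 0.28, adjusted p = 0.00176). It was also called over the 8 days (adjusted p = 0.0191), 1 of the 6, against 16.3% of everything tested. Bmp1 of that list was higher on day 3 (1.04 ± 0.34, adjusted p = 0.0292) and the mitochondrial Lonp1 on day 6 (1.07 ± 0.28, adjusted p = 0.00829). Days 3 and 6 called 24.4% and 24.8% of everything tested. No alternatives are given here for these calls.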

How the data were processed

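The authors deposited a table of log2 ratios, 24157 features on 24 arrays, 3 for each of 8 days. Base 2 and the direction, Cy5 sample over Cy3 reference, are read from the values and the dyes in the labels. Which scanner, background correction and normalization were used, and why cells are empty, is not stated in the labels or files read here. Column medians as deposited ran from -0.025 to 0.029, and scale and centring beyond that are unknown. Symbols came from the platform's annotation, updated through Entrez identifiers (GRCm38.p6). Genes with several features (29 of the 73) were averaged.

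Arrays were centred on their median and fitted by lmFit and eBayes of limma 3.58.1 (R 4.3.3) as 8 day means with a common spread. P-values were 2-sided, adjusted by Benjamini-Hochberg over 10639 units (5660 genes and 4979 unnamed features, each with at least 2 values on each day), with 0.05 as threshold. Whether the arrays of a day are separate cultures is not stated. The p-values then reflect the spread between arrays alone, which may be technical, and the number of arrays limits the precision. The fit was tested on simulated data (day 7 against day 0, 10639 units, 200 changed) and recovered 0% of changes of 0.5, 20.9% of 1 and 80.3% of 2, with 2 false calls. The simulated arrays were independent, with the same spread on every day for each unit. The measured arrays were neither. The simulation also changed only 200 of the 10639 units, while the measured day 7 comparison called 27.6%, and the adjustment of p-values depends on this share. These figures therefore give neither the error nor the recovery of the tests on the real data.

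Any tested gene of the rule could be named. Values on single arrays were given for genes past a test and for a fixed set of well-known chaperones. The genes, compartments and lists were chosen with earlier results of these data known. Genes named beyond these, such as Dnajc10, Hspa9, Hsph1, P4ha1, Hspbap1, Hspa4l and those that show the C arrays, were chosen after their values were seen. Comparisons of days 2 to 6 with day 0 were added from the same fit after the data were seen, and the genes called there alone were named by that. Alternatives were no centring, scaled arrays, only the compared days, 1 feature per gene, complete values, a replicate block, day 0 signs turned, no late C arrays, the reference channel as baseline and leaving out each array.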

Additional observations from a re-analysis of the deposited data

Results flagged for a closer look

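The day 7 and day 1 effects of Dnajb4 differed, and this difference was tested in the same limma fit. Day 7 exceeded day 1 by 0.95 (log2; adjusted p = 0.0134), with all 3 arrays of day 7 above all 3 of day 1. It was the only 1 of the 61 tested genes called in this comparison, which called 2.92% of everything tested, 1.54% higher and 1.38% lower.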

How the results depend on the processing

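Dnajb4 kept its 3 calls, and Dnajc18 and Fkbp9 kept their day 7 calls, under all alternatives tried for them but 1, the turned sign of day 0 for Fkbp9. Counts of called genes are given with the share of everything tested. The 1 gene called on day 1 (10.9%) became 10 with arrays scaled (30.6%), 8 with only the compared days fitted (24.2%), 2 with the replicate block (14.7%), 2 with all day 0 signs turned (4.84%), 4 with day 0 array C turned (16%), 6 without the C arrays of days 4 to 7 (21.3%) and 5 against the reference channel (16.2%). The 8 called on day 7 (27.6%) became 5 with only the compared days (15.1%), 4 with day 0 turned (11.6%) and 13 against the reference channel (35.1%). The 3 called between late and early days (7.74%) became 5 with the feature with most values (7.2%). The 4 called over the 8 days (16.3%) became 9 with arrays scaled (25%), 7 with the replicate block (24.2%), 1 with day 0 turned (10.2%) and 11 without the late C arrays (29.8%). Days 2 to 6 were tried with fewer alternatives, chosen after seeing the data. Their counts of 4, 6, 8, 8 and 9 became 11, 11 and 13 on days 2, 3 and 4 without the late C arrays (31.1%, 37% and 26.1%), 7 on day 2 with the replicate block (22.6%) and 2 on day 5 with day 0 turned (12.6%), and were 0 to 5, 2 to 7, 2 to 7, 1 to 8 and 4 to 10 without 1 array. Leaving out 1 array gave 0 to 3 calls on day 1, 3 to 11 on day 7, 1 to 6 between late and early days and 1 to 5 over the 8 days. The day 1 step of ER over cytosolic genes (0.42) was 0.61 with arrays scaled, 0.14 with day 0 turned, 0.32 with its array C turned and 0.28 against the reference channel, and 0.40 to 0.46 without 1 array. The day 7 step (0.21) reversed to -0.08 with day 0 turned, was 0.06 against the reference channel, and 0.13 to 0.27 without 1 array. The late minus early step (-0.12) ran from -0.15 to -0.10 without 1 array and from -0.18 to -0.11 under the other alternatives. With day 0 turned, Bag5 reversed to -0.13 on day 7 and -0.10 on day 5, and Fkbp9 to 0 on day 4 and -0.07 on day 5. For scaling, the block and the choice of feature, the cause was not tested. Same-letter arrays deviated together within days 1 to 3 (r of 0.194 to 0.441) and days 4 to 7 (0.142 to 0.912), but at -0.544 to 0.912 over all days, so letters were not taken to pair arrays. With the letter as a block, day 7 gave 10 calls (34.4%) and late against early days 4 (14.5%). Over all days 19 of 24 arrays correlated best with their own letter, and within days 1 to 3 or days 4 to 7 all 21 of 21 did, a hint from the data and not the design.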
